A study of Oryza sativa with 28 samples.

Results

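The transcripts described here are the 150 genes whose level stood out most in panicles of the male-sterile type at the uninucleate stage. They were selected on their RNA-seq values by the following rule. A gene with an MSU7 locus name qualified when each of the 3 SP4 libraries gave at least 1 FPKM (fragments scaled to gene length and library size). Its score was the mean SP4 level divided by the highest of the mean levels in FP3, SP3 and FP4, to which 0.5 FPKM was added, and the 150 highest scores were kept. Of 45273 MSU7 loci in the tables, 16337 qualified, so the members were 150 of 16337 candidates and of 47919 genes in all. Because the SP4 values chose the members, every comparison with SP4 below is a description without a test.

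Wuxiang S (WXS) is an indica rice line that carries a mutant tms5 locus and is photo-thermosensitive genic male sterile (PTGMS), which means that the environment decides whether its anthers make pollen. Sterile plants, WXS(S), stayed in the paddy field in summer, and fertile plants, WXS(F), were moved to growth chambers averaging 22 °C once the panicle was near 1 cm long, so that type and growing condition cannot be told apart. Young panicles were taken at meiosis (P3) and at the uninucleate stage (P4), which gave the groups FP3, SP3, FP4 and SP4, all of them of the same line with the same mutant locus. RNA-seq had 3 libraries per group, with 30577833 to 51193158 counts per library, and ATAC-seq had 2 libraries per group. A panicle holds many tissues, and in such bulk samples fewer cells of a type and less RNA per cell cannot be told apart. The labels do not say that replicates came from separate plants, so p-values measure the spread between these libraries.

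As background, the uninucleate stage follows meiosis, when the microspores have been released from their tetrads and begin to build the pollen wall. The tapetum, the innermost cell layer of the anther wall, feeds them with lipids, enzymes and wall precursors and is broken down in a timed way. The TMS5 protein of rice is an RNase that cuts mRNAs of Ub_L40 genes, which encode ubiquitin fused to a ribosomal protein, and these mRNAs are known to build up in tms5 mutants at high temperature.

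The members ranged from a mean of 1.22 to 1169 FPKM in SP4, with a median of 11.6 FPKM, whereas the median of their mean levels was 1.94 FPKM in FP3, 2.11 in SP3 and 2.72 in FP4. In SP4, 14 members were above 100 FPKM, 87 were above 10 FPKM and 37 were below 5 FPKM. Scores ran from 1.92 to 18.4 with a median of 2.70, and 4 members scored above 10, 22 above 5 and 63 above 3. The members together took between 1.58% and 1.75% of the counts in the SP4 libraries, against 0.260% to 0.262% in FP3, 0.282% to 0.317% in SP3 and 0.345% to 0.399% in FP4. The 5 most abundant members made up 50.8% of their summed SP4 level.

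**Figure D1:**
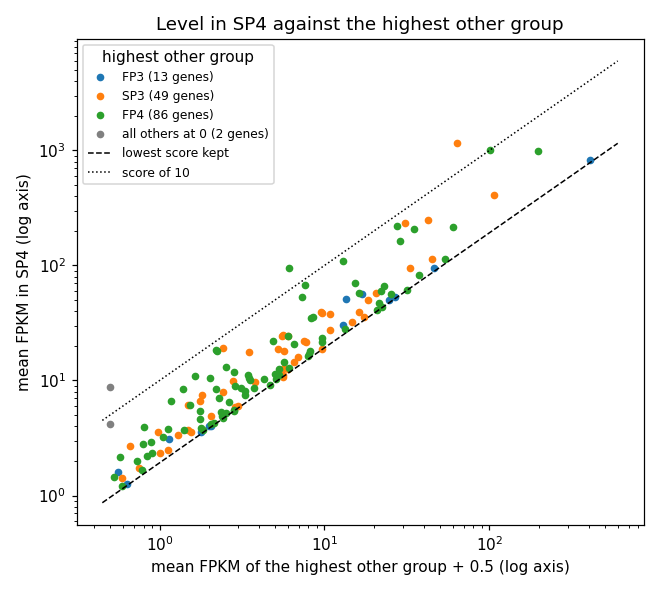
Mean FPKM in SP4 (vertical, log axis) against the mean of the highest other group plus 0.5 FPKM (horizontal, log axis) for the 150 members, 1 point per gene, coloured by which other group was highest. Points lie on or above the dashed line of the lowest score kept (1.92), 4 points lie above the dotted line of a score of 10, and 2 genes had 0 FPKM in all other groups.

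The group that came second differed between members. FP4 was second in 86 members, SP3 in 49 and FP3 in 13, and 2 members had no reads outside SP4. Where FP4 was second, the median level was 11 FPKM in SP4, compared with 1.86 in FP3, 1.65 in SP3 and 3.0 in FP4. Where SP3 was second, it was 17.6 FPKM in SP4, compared with 1.97 in FP3, 5.10 in SP3 and 1.78 in FP4, and 14 of these 49 members had an FP4 mean below 0.5 of their SP3 mean. Among the 86 members with FP4 second, the SP3 mean was below 0.5 of the FP4 mean in 41.

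In 149 of the 150 members the lowest SP4 library was above the highest of the other 9 libraries. The rule favours this separation and its share over all qualifying loci was not computed, so nothing is read from the count. The exception was LOC_Os12g29605, with 16.5, 22.9 and 4.35 FPKM in SP4, against 2.83, 3.42 and 1.45 in FP3, 3.77, 2.02 and 8.3 in SP3 and 4.46, 7.08 and 3.94 in FP4, and the third SP4 library lay within the range of the other groups. The spread among SP4 replicates was a median coefficient of variation (CV) of 8.32% over the members and 8.19% over all 16337 qualifying loci, and 8 members had a CV above 25%. In the other groups, over the members with at least 1 FPKM in each library, the median CV was 11.2% in FP3 (92 members), 23.1% in SP3 (93 members) and 9.51% in FP4 (106 members). In FPKM, the members' levels in SP3 were thus the least even among replicates. The CV is not given for counts scaled to library size with TMM factors (CPM), which can differ from FPKM. In LOC_Os01g52470, for example, the third SP3 library was lowest in FPKM but had 49.2 CPM beside 48.2 and 46.7. The lowest SP4 count behind any member was 35 reads in a library, and 3 members had fewer than 50 reads in at least 1 SP4 library.

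The highest score belonged to LOC_Os08g43240, which had 1157, 1171 and 1179.7 FPKM in SP4, against 37.6, 31.4 and 32.5 in FP3, 75.9, 66.6 and 46.6 in SP3 and 59.9, 60.2 and 51.6 in FP4. Its lowest SP4 value was more than 10 times the highest value of any other library, and the SP4 replicates differed little from each other. LOC_Os04g58120 was of similar abundance, with 1057, 972 and 1024 FPKM in SP4, against 55.1, 44.7 and 44.2 in FP3, 102, 113 and 59.9 in SP3 and 103, 103 and 97.6 in FP4. Among the other groups of this gene, FP3 was lowest, and its SP4 mean was 1018 ± 42.5 FPKM (SD, n = 3). These were the most abundant members. The sources used here name proteins only for some members on chromosomes 1 and 2, so neither gene has a protein name here.

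Both members without reads elsewhere were neighbours. LOC_Os10g37860 gave 10.5, 8.66 and 7.3 FPKM in the SP4 libraries, and the next locus, LOC_Os10g37870, gave 4.71, 5.19 and 2.63 FPKM. All 9 libraries of FP3, SP3 and FP4 had 0 counts for each of them, whereas the SP4 libraries summed to 489 and 181 counts. With a floor of 3 counts over a group in place of 0, LOC_Os10g37860 was at least 186-fold and LOC_Os10g37870 at least 69.0-fold higher in SP4 than in any other group, counting error only. Their first and second SP4 libraries were higher than the third.

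LOC_Os03g48200, with a score of 15.7, had 91.4, 94.2 and 102 FPKM in SP4, against 3.1, 2.33 and 2.77 in FP3, 4.29, 4.57 and 2.43 in SP3 and 5.54, 5.35 and 5.87 in FP4, so that its levels elsewhere were in single digits and close to 100 FPKM in SP4. A gene 4 loci away, LOC_Os03g48235, was also a member, with 38.1, 36.3 and 40.5 FPKM in SP4, against 4.03, 3.22 and 3.13 in FP3, 10.6, 10.4 and 6.54 in SP3 and 5.81, 6.42 and 6.18 in FP4. In contrast to its neighbour, this gene was higher in each SP3 library than in any FP3 or FP4 library. LOC_Os03g24130 had 65.6, 60.1 and 75.3 FPKM in SP4, against 3.44, 2.99 and 2.87 in FP3, 0.706, 0.704 and 0.697 in SP3 and 6.35, 7.64 and 7.52 in FP4, with SP3 as its lowest group. LOC_Os03g24300 had 108, 96.2 and 125 FPKM in SP4, against 7.59, 6.91 and 5.67 in FP3, 9.14, 10.7 and 7.53 in SP3 and 11.8, 12.9 and 12.5 in FP4, and here FP3 was lowest.

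The remaining genes of the 12 highest scores were less abundant or carried an annotation. LOC_Os10g42060 had 15.3, 21.9 and 17.7 FPKM in SP4, against 1.29, 0.812 and 1.16 in FP3, 0.517, 1.05 and 0.635 in SP3 and 1.4, 2.05 and 1.68 in FP4. LOC_Os05g41870 had 16.4, 19.4 and 21.1 FPKM in SP4, against 1.17, 0.551 and 0.737 in FP3, 1.78, 2.32 and 1.71 in SP3 and 0.835, 1.39 and 1.12 in FP4. No library outside SP4 reached 3 FPKM for either gene. LOC_Os03g14140, which carries the gene ontology (GO) term cell wall, had 227, 229.5 and 241 FPKM in SP4, against 22.9, 19.2 and 19.9 in FP3, 29.6, 35.6 and 25.7 in SP3 and 30.3, 30.0 and 28.7 in FP4, with SP4 replicates between 227 and 241 FPKM.

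**Figure D2:**
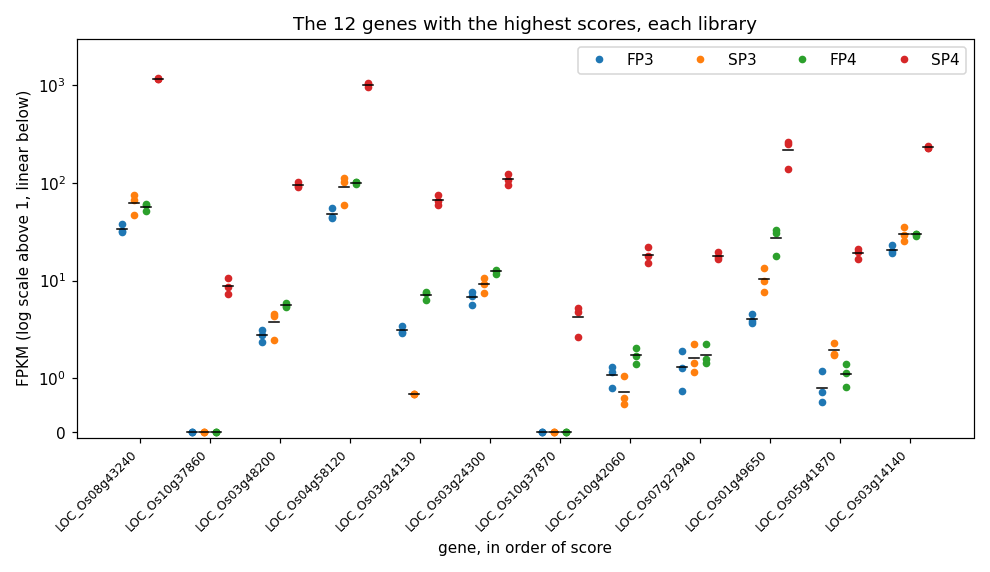
FPKM of the 12 members with the highest scores in each RNA-seq library (vertical axis logarithmic above 1 FPKM and linear below), 1 dot per library and a bar at the group mean (n = 3). Every SP4 dot lies above all dots of FP3, SP3 and FP4 of the same gene, and LOC_Os10g37860 and LOC_Os10g37870 lie at 0 outside SP4.

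At the other end of the list, the last members inside rank 150 were LOC_Os03g55880 (score 1.93), LOC_Os10g14180 (score 1.92) and LOC_Os03g20450 (score 1.92), and the first genes outside it were LOC_Os07g28850 (score 1.92), LOC_Os11g45990 (score 1.92) and LOC_Os02g42650 (score 1.91). The border thus ran through genes with nearly equal scores. LOC_Os03g20450 had 18.6 ± 0.828 FPKM in SP4 and 9.19 ± 0.181 in SP3, its second group (SD, n = 3). LOC_Os07g28850 had 3.78 ± 0.864 FPKM in SP4 and 1.47 ± 0.0696 in FP4, its second group, with SP3 close behind at 1.44 ± 0.143.

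The annotations available were GO terms of the study's supplementary lists, which named 76 members but whose gene lists were shortened for many terms, and protein names for 8 members, 1 of them without a known function. By locus number these 8 all lay between LOC_Os01g12190 and LOC_Os02g02820, so a missing name elsewhere does not mark a gene as uncharacterized. In all, 77 members had a GO term or a named protein and 73 had neither, so the groups below cover at least the members named and may miss others. The lists were built by the study from genes that differed among these same samples, and their counts are a description. All terms of the members came from the study's clusters 3 and 4. The paper describes both as rising from P3 to P4, with higher levels in WXS(F) in cluster 3 and in WXS(S) in cluster 4. The direction of change by GO group was thus partly set in advance, and nothing is read from it below.

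Lipid binding was a term of 8 members, a term that lipid transfer proteins of plants carry. The most abundant of them, LOC_Os09g35700, had 902, 1157 and 888 FPKM in SP4, against 48.6, 40.9 and 36.3 in FP3, 41.9, 71.7 and 37.1 in SP3 and 171, 196 and 223 in FP4. Its FP4 libraries were above all libraries of P3, and its SP4 libraries were above FP4. LOC_Os01g49650 had 253, 265 and 138 FPKM in SP4, against 4.52, 3.71 and 3.83 in FP3, 9.82, 7.56 and 13.4 in SP3 and 17.7, 30.6 and 33.1 in FP4, and the third SP4 library was far below the other SP4 libraries but above every library of the other groups. The adjacent locus LOC_Os01g49640 carries the same term, with 5.66, 6.75 and 5.95 FPKM in SP4, against 0.282, 0.346 and 0.398 in FP3, 0.297, 0.205 and 0.536 in SP3 and 0.95, 0.911 and 1.24 in FP4. The authors' counting is not stated to split reads between similar neighbours, so the separate values of this pair are uncertain to that extent. LOC_Os07g27940 had 16.7, 17.5 and 19.7 FPKM in SP4, against 1.9, 0.761 and 1.26 in FP3, 2.21, 1.41 and 1.16 in SP3 and 2.22, 1.42 and 1.56 in FP4, while LOC_Os01g12020 had 64.2, 73.9 and 72.9 FPKM in SP4, against 5.36, 5.76 and 5.38 in FP3, 7.79, 8.06 and 5.23 in SP3 and 17.3, 18 and 8.97 in FP4. In LOC_Os01g12020 all FP4 libraries were above FP3. The third FP4 library was far below the others in FPKM only, since its counts gave 51.2 CPM (counts scaled to library size with TMM factors) beside 52.1 and 55.1 CPM. The other lipid-binding members, LOC_Os03g14700, LOC_Os06g43600 and LOC_Os10g40430, had SP4 means of 6.17 ± 0.105, 50.9 ± 7.4 and 3.36 ± 0.377 FPKM (SD, n = 3).

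Cell wall was a term of 5 members and external encapsulating structure of 7. Besides LOC_Os03g14140, they included LOC_Os01g66700, whose protein resembles beta-hexosaminidase 3 of Arabidopsis, an enzyme that trims terminal sugars from glycans. Its levels were 262, 239 and 239.9 FPKM in SP4, against 20.3, 19.7 and 16.4 in FP3, 51, 41.6 and 32.8 in SP3 and 43.3, 43.5 and 37.1 in FP4. In this gene FP3 was lowest, and SP3 and FP4 overlapped. LOC_Os04g33740, also annotated to carbohydrate metabolism, had 28.7, 24.2 and 30.0 FPKM in SP4, against 1.76, 1.23 and 1.49 in FP3, 11.3, 14.1 and 5.34 in SP3 and 1.81, 3.45 and 2.06 in FP4, and LOC_Os11g47670 had 48, 50.4 and 52.7 FPKM in SP4, against 7.12, 5.54 and 5.46 in FP3, 19.2, 18.9 and 15.4 in SP3 and 8.57, 8.49 and 7.1 in FP4. Both had SP3 as the second group, with each SP3 library above each FP3 and FP4 library. LOC_Os08g05820, which is also annotated to the extracellular region, had 35.1, 35.6 and 36.1 FPKM in SP4, against 3.6, 3.24 and 2.41 in FP3, 5.59, 6.43 and 6.38 in SP3 and 8.64, 8.06 and 7.48 in FP4. LOC_Os04g34480 and LOC_Os02g15710 carry the term pollination and were low throughout, with SP4 means of 3.98 ± 0.348 and 2.2 ± 0.59 FPKM. LOC_Os04g34480 was at 0 in all SP3 libraries.

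Several members are annotated to DNA binding, among them a gene on the list of tapetum markers. TDR (LOC_Os02g02820, Tapetum Degeneration Retardation) is a bHLH transcription factor required for tapetum breakdown in rice, and its protein resembles ABORTED MICROSPORES of Arabidopsis. It had 24.9, 22.3 and 23.5 FPKM in SP4, against 3.27, 3.07 and 2.84 in FP3, 6.89, 9.22 and 6.88 in SP3 and 8.85, 8.47 and 10.1 in FP4. The groups did not overlap except SP3 and FP4, and FP3 was lowest. LOC_Os04g39470, with the terms transcription factor activity and flower development, had 8.61, 8.31 and 9.11 FPKM in SP4, against 1.54, 1.82 and 1.44 in FP3, 0.342, 0.233 and 0.111 in SP3 and 3.48, 3.37 and 2.92 in FP4, with SP3 as the lowest group. LOC_Os05g28320 had 9.44, 11.7 and 12.4 FPKM in SP4, against 1.02, 0.677 and 0.883 in FP3, 1.86, 2.14 and 1.09 in SP3 and 2.67, 3.33 and 2.84 in FP4. LOC_Os03g51200, annotated to DNA binding and the nucleolus, had 20.3, 21.1 and 24.2 FPKM in SP4, against 1.23, 1.77 and 1.51 in FP3, 6.32, 8.15 and 6.7 in SP3 and 0.686, 0.556 and 0.436 in FP4, with FP4 as the lowest group.

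Of the 6 tapetum markers on the list, TDR alone was highest in SP4. UDT1 (LOC_Os07g36460) had means of 1.98 FPKM in SP3, 1.25 in FP4 and 1.34 in SP4. EAT1 (LOC_Os04g51070) had means of 10.2 FPKM in FP4 and 6.42 in SP4. Tapetum genes outside this short list were not looked for among the members. The summed level of the 6 markers, TDR included, was 41.2 to 50.3 FPKM in the FP3 libraries, 21.9 to 28.5 in SP3, 789 to 843 in FP4 and 39.8 to 45.4 in SP4. OsC6 (LOC_Os11g37280), a lipid transfer protein gene of the tapetum, made up 623 of the mean sum of 815 FPKM in FP4, and TDR made up 23.6 of 41.9 FPKM in SP4. Of the 6 genes, 4 were highest in FP4, 1 in SP3 and 1, TDR, in SP4. None of the 5 meiocyte markers was a member, and their sum was 25.3 to 31.4 FPKM in FP3, 53.2 to 68.5 in SP3, 8.04 to 9.85 in FP4 and 34.3 to 38.7 in SP4. The 5 green tissue markers, also no members, summed to 100.1 to 107 FPKM in FP3, 80.8 to 129 in SP3, 507 to 543 in FP4 and 291 to 329 in SP4. The 5 stamen and petal identity genes summed to 88.0 to 96.2 FPKM in FP3, 127 to 229 in SP3, 196 to 215 in FP4 and 227 to 244 in SP4. Single genes carried much of these sums. The meiocyte gene MEL1 (LOC_Os03g58600) made up 49.5 of the mean sum of 63.3 FPKM in SP3. The green tissue gene LOC_Os01g41710 made up 351 of 522 FPKM in FP4, and OsMADS16 (LOC_Os06g49840) 155 of 237 in SP4. Highest in SP4 were 2 meiocyte markers, 1 green tissue marker and 1 identity gene, and the others were highest in SP3 or FP4. These markers of tissue differed between the groups in which the members differed, and none of them was at 0 in every library of a group. Their part in the members' levels was not tested.

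Heat response genes were not among the members. Of 7 such genes (5 small heat shock proteins, HSP101 and HsfA2a), 5 were below 1 FPKM in at least 1 SP4 library and could not be members, and 0 were members. With 150 members among 16337 candidates, a short list holds few or none whatever its genes do. Their sum was 72.5 to 78.4 FPKM in FP3, 19.8 to 22.9 in SP3, 48.5 to 50.8 in FP4 and 32.8 to 38.5 in SP4. Of 5 transcription factors that the study names (ERF141, ERF65, GATA10, MADS7 and MADS50), 2 were below 1 FPKM in an SP4 library and could not be members, and 0 were members. None of them was highest in SP4.

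Of the ubiquitin fusion genes and tms5, 2 of 4 were members. Ub_L40 2 (LOC_Os03g15370) had 7.98, 8.16 and 7.61 FPKM in SP4, against 1.43, 1.24 and 1.49 in FP3, 2.17, 1.25 and 2.37 in SP3 and 1.9, 1.65 and 1.63 in FP4, so that SP4 stood above all other groups. SP3 overlapped FP3 and FP4, and every FP4 library was above every FP3 library. Ub_L40 1 (LOC_Os09g27930) had 3.5, 4.66 and 3.95 FPKM in SP4, against 1.6, 1.9 and 1.12 in FP3, 0.108, 0.325 and 0 in SP3 and 1.51, 1.52 and 1.41 in FP4, with SP3 far below the others and SP4 above all. Ub_L40 4 (LOC_Os09g31031) was much more abundant, at 210 ± 11.3 FPKM in SP4, and was also highest there, but it did not enter the list because SP3 was nearly as high at 188 ± 44.1 FPKM (SD, n = 3). The 3 genes encode similar proteins and may share reads. The authors discarded low-quality alignments, but the sources do not say how shared reads were counted, so each value is uncertain. Elongation factor 2 moves the ribosome along the mRNA, and the member LOC_Os01g52470, whose protein resembles that of sugar beet, had 36.5, 37.2 and 41 FPKM in SP4, against 1.76, 2.11 and 1.99 in FP3, 11.2, 11 and 8.89 in SP3 and 1.04, 1.06 and 1.1 in FP4. It was low in WXS(F) at both stages, and each SP3 library was above each library of FP3 and FP4. Along with Ub_L40 1, Ub_L40 2 and LOC_Os03g51200, this gene and LOC_Os09g01670 carry the term nucleolus. The 5 genes had no common order of the groups outside SP4.

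**Figure D3:**
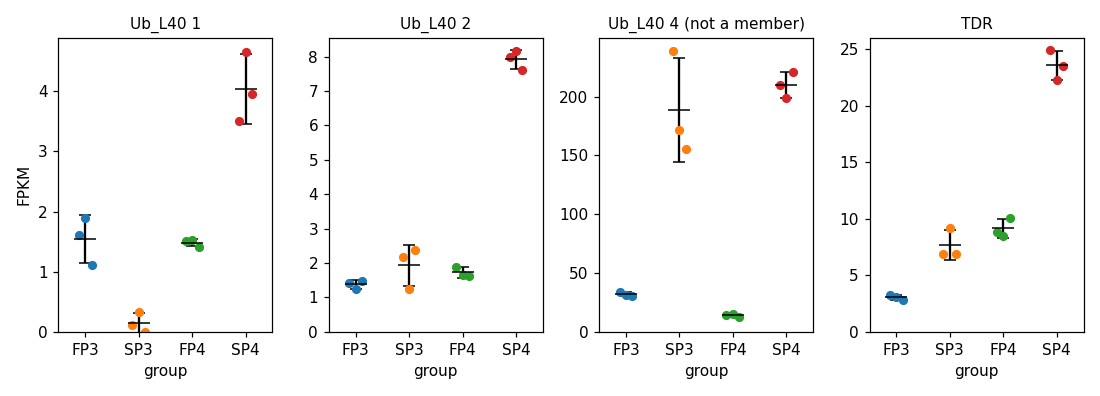
FPKM in each RNA-seq library (dots), with the group mean and SD (bars, n = 3), for Ub_L40 1, Ub_L40 2, Ub_L40 4 and TDR, on linear axes from 0. Both member Ub_L40 genes and TDR are highest in SP4, whereas Ub_L40 4 is high in SP3 as well, at a mean of 188 FPKM.

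Other annotated members had single roles. LOC_Os01g56810 encodes cytokinin dehydrogenase 5, an enzyme that degrades cytokinin, and had 32.3, 32.3 and 32.7 FPKM in SP4, against 6.01, 4.06 and 4.51 in FP3, 14.5, 14.3 and 13.6 in SP3 and 9.8, 7.15 and 7.11 in FP4. Its SP4 libraries were the most alike of all groups, and SP3 came second. LOC_Os07g22850, annotated to secondary metabolism, had 62.2, 53.7 and 63.4 FPKM in SP4, against 4.58, 3.92 and 3.6 in FP3, 0.602, 0.526 and 0.358 in SP3 and 21.4, 21.5 and 21.4 in FP4, which placed the groups in the order SP3, FP3, FP4 and SP4 with no overlap. LOC_Os04g55850, annotated to nuclease activity, had 165, 152 and 169 FPKM in SP4, against 15.9, 13.8 and 12.5 in FP3, 12.1, 11.8 and 8.36 in SP3 and 28, 28.5 and 27.5 in FP4. LOC_Os01g73200, whose protein resembles a cationic peroxidase of sorghum, had 5.99, 6.56 and 6.99 FPKM in SP4, against 1.3, 1.44 and 1.49 in FP3, 0.917, 0.656 and 0.533 in SP3 and 2.65, 2.02 and 1.76 in FP4. LOC_Os01g65590, similar to a probable beta-1,3-galactosyltransferase of Arabidopsis, had 35.2 ± 2.38 FPKM in SP4, 7.8 ± 0.306 in FP4, 6.86 ± 0.677 in SP3 and 2.47 ± 0.345 in FP3 (SD, n = 3). RNA binding was a term of 3 members, LOC_Os09g14550, LOC_Os03g09150 and LOC_Os12g31000, with SP4 means of 10.4 ± 1.64, 7.5 ± 0.302 and 9.88 ± 0.418 FPKM. Signal transduction was a term of 4 members, LOC_Os09g15790, LOC_Os09g15700, LOC_Os01g08130 and LOC_Os10g34170, which were all below 10 FPKM in SP4.

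The members next by score, from rank 13 to rank 22, all scored above 5. LOC_Os12g13160 had 55.7, 51 and 53.7 FPKM in SP4, against 3.08, 3.29 and 2.05 in FP3, 4.05, 5.29 and 5.09 in SP3 and 6.79, 6.5 and 7.04 in FP4, and its FP4 libraries were above all libraries of P3. LOC_Os04g50850, annotated to protein metabolism, had 10.9, 10.2 and 11.6 FPKM in SP4, against 0.356, 0.454 and 0.504 in FP3, 1.11, 1.21 and 0.926 in SP3 and 1.15, 1.13 and 1.13 in FP4, with FP3 as the lowest group. LOC_Os06g43880, with the terms lipid metabolic process and response to stress, had 8.93, 8.42 and 7.94 FPKM in SP4, against 0.388, 0.453 and 0.386 in FP3, 0.691, 0.852 and 0.896 in SP3 and 1.01, 0.81 and 0.858 in FP4. SP3 and FP4 overlapped in both of these genes, and FP3 was below them. LOC_Os11g03520 had 6.32, 7.17 and 6.6 FPKM in SP4, against 0.28, 0.423 and 0.428 in FP3, 0.791, 0.195 and 0.297 in SP3 and 0.689, 0.657 and 0.66 in FP4, while LOC_Os03g11760, annotated to flower development, had 13.8, 12 and 13.6 FPKM in SP4, against 0.862, 1.12 and 1.18 in FP3, 1.13, 0.873 and 1.02 in SP3 and 1.92, 2.04 and 2.1 in FP4. LOC_Os07g07420, annotated to cell growth, had 16.3, 17.7 and 18.7 FPKM in SP4, against 1.11, 0.877 and 1.19 in FP3, 2.82, 4.15 and 1.98 in SP3 and 2.1, 2.39 and 1.84 in FP4. In these last 3 genes no library outside SP4 reached 5 FPKM.

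Carbohydrate metabolism was a term of 8 members. Besides LOC_Os01g66700 and LOC_Os04g33740, LOC_Os05g49430 had 26.3, 23.4 and 22.8 FPKM in SP4, against 3.48, 4.09 and 3.1 in FP3, 5.57, 4.74 and 3.53 in SP3 and 5.97, 5.63 and 4.92 in FP4, and LOC_Os05g35360 had 12.6, 11.1 and 11.9 FPKM in SP4, against 1.12, 1.04 and 0.83 in FP3, 1.62, 1.95 and 1.87 in SP3 and 2.49, 2.2 and 2.26 in FP4. LOC_Os09g31430 had 16.8, 17 and 17.3 FPKM in SP4, against 3.08, 4.02 and 3.66 in FP3, 1.76, 2.2 and 1.29 in SP3 and 7.25, 6.58 and 8.93 in FP4, with SP3 as its lowest group, and LOC_Os02g54390 had 4.2, 3.35 and 4.03 FPKM in SP4, against 0.374, 0.206 and 0.204 in FP3, 0.151, 0.171 and 0.133 in SP3 and 1.3, 1.31 and 1.27 in FP4. In LOC_Os02g54390 the FP4 libraries were above every FP3 and SP3 library. LOC_Os06g12450 and LOC_Os04g35030 were low, with SP4 means of 2.79 ± 0.343 and 1.43 ± 0.369 FPKM (SD, n = 3), and LOC_Os04g35030 stayed below 0.1 FPKM in every library outside SP4. LOC_Os04g42860, annotated to lipid metabolism, was abundant in all groups, with a mean of 114 ± 9.38 FPKM in SP4 against 37.8 ± 0.723 in FP3, 44.6 ± 2.6 in SP3 and 43.6 ± 1.7 in FP4 (SD, n = 3).

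Abundance and score were not the same. The 10 most abundant members included LOC_Os01g14850, which ranked 129, with 850.2, 753 and 895 FPKM in SP4, against 421, 405 and 400.1 in FP3, 302, 337 and 288 in SP3 and 408, 398 and 402 in FP4. Its level elsewhere was already high, and SP3 was lowest. LOC_Os05g44120 had 416, 413 and 402 FPKM in SP4, against 32.6, 29.6 and 28.2 in FP3, 129.9, 105 and 82.6 in SP3 and 84, 84.2 and 76.5 in FP4, with SP3 and FP4 well above FP3. LOC_Os05g10210 had 209, 216 and 226 FPKM in SP4, against 27.7, 26.4 and 26.2 in FP3, 22.6, 23.3 and 12.2 in SP3 and 30.9, 77.3 and 71.6 in FP4, and its first FP4 library was far below the other FP4 libraries. LOC_Os05g30400 had 214, 198 and 206 FPKM in SP4, against 15.6, 13.5 and 12.9 in FP3, 7.84, 10.3 and 9.02 in SP3 and 29.8, 37.2 and 35.9 in FP4. The sources name no protein for these 4 genes.

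The members with the least even SP4 replicates, besides LOC_Os12g29605, LOC_Os10g37870 and LOC_Os01g49650, were LOC_Os03g24910 (29.4, 16.2 and 27.2 FPKM) and LOC_Os09g37300 (2.06, 1.16 and 1.54 FPKM). LOC_Os09g37300 was near 0 elsewhere and at 0 in all FP4 libraries. In LOC_Os03g24910 and LOC_Os09g37300 the second SP4 library was lowest. The counts of LOC_Os03g24910 gave 79.3, 59.4 and 69.8 CPM in SP4, a narrower spread than in FPKM. LOC_Os08g34700 was uneven outside SP4, with 17.3, 15.5 and 15.7 FPKM in SP4, against 0, 8.24 and 7.72 in FP3, 0, 5.51 and 0 in SP3 and 11.4, 10.9 and 0 in FP4. It was at 0 in 4 libraries of the other groups, and in each of those groups other libraries were above 5 FPKM.

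By order of their locus numbers, 20 members formed 10 pairs that lay within 10 annotated loci of each other. Adjacent pairs were LOC_Os01g49640 and LOC_Os01g49650, LOC_Os07g23640 and LOC_Os07g23660, LOC_Os07g43250 and LOC_Os07g43260, and LOC_Os10g37860 and LOC_Os10g37870. The pair on chromosome 7 with the term cytoskeleton for 1 of its genes differed in the level of SP3. LOC_Os07g43250 had 39.1, 37.3 and 41.4 FPKM in SP4, against 2.89, 2.5 and 2.22 in FP3, 11.2, 9.81 and 6.1 in SP3 and 1.52, 1.88 and 1.94 in FP4, whereas LOC_Os07g43260 had 11.8, 11.6 and 14.2 FPKM in SP4, against 4.62, 2.59 and 3.84 in FP3, 7.67, 5.35 and 3.55 in SP3 and 0.769, 1.29 and 0.942 in FP4. Both were lowest in FP4. The members were spread over all 12 chromosomes, from 6 on chromosome 12, beside 885 qualifying loci there, to 24 on chromosome 3, beside 2335.

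The groups other than SP4 allow tests that hold no SP4 library. FP3 was compared with SP3 and with FP4 by edgeR's quasi-likelihood test, in which a gene was called at a Benjamini-Hochberg adjusted p below 0.05 over all genes tested and an absolute log2 fold change above 1. The members' levels in these groups had entered the denominator of the score, and both comparisons share the FP3 libraries. The counts of members called are therefore a description beside the share of all genes, and nothing is read from the difference between them. Some members were too low for edgeR's filter, which left 143 members in the first and 140 in the second comparison. SE stands for the standard error of a log2 fold change, computed from the F statistic.

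At meiosis, 28 of the 143 members tested were lower in FP3 than in SP3, which is 19.6%, beside 6.74% of the 24405 genes tested. In the opposite direction, 9 members (6.29%) were higher in FP3, beside 14.8% of all genes. The median log2 fold change of FP3 relative to SP3 was -0.20 for the members and 0.04 for all genes, and 85 members had a negative and 58 a positive value. Most members were therefore not called in this comparison. Of the members tested in each GO group, 1 of 8 for lipid binding, 3 of 6 for external encapsulating structure, 2 of 3 for RNA binding and 1 of 4 for extracellular region were lower in FP3, and none was higher. Other groups had calls both ways, with 2 lower and 1 higher of 7 for carbohydrate metabolism, of 7 for DNA binding and of 5 for nucleolus, and 1 lower and 1 higher of 5 for flower development. None of the 4 members tested for response to stress was called.

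Among called members whose replicates did not overlap and whose mean over the 6 libraries reached 1 CPM, the values lowest in FP3 relative to SP3 were those of LOC_Os02g52930, LOC_Os04g33740 and LOC_Os01g52470. LOC_Os02g52930 had 9.67, 9.6 and 9.99 FPKM in SP4, against 0.441, 0.517 and 0.584 in FP3, 3.67, 3.95 and 2.28 in SP3 and 3.01, 2.99 and 3.09 in FP4, with a log2 fold change of -2.55 (SE 0.22, edgeR adjusted p = 0.000303). The cell wall gene LOC_Os04g33740 had -2.44 (SE 0.207, edgeR adjusted p = 0.000288), and the elongation factor gene LOC_Os01g52470 had -2.32 (SE 0.12, edgeR adjusted p = 4.75e-05). In the cytokinin dehydrogenase gene LOC_Os01g56810 the change was -1.46 (SE 0.136, edgeR adjusted p = 0.000402). TDR was lower in FP3 as well, with a log2 fold change of -1.18 (SE 0.117, edgeR adjusted p = 0.000521), and so did LOC_Os05g44120 with -1.72 (SE 0.115, edgeR adjusted p = 0.000119). For each of these genes every FP3 library was below every SP3 library.

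By the same rule, the values highest in FP3 were those of Ub_L40 1 (LOC_Os09g27930), LOC_Os07g22850 and LOC_Os04g39470. Ub_L40 1 had a log2 fold change of 3.52 (SE 0.858, edgeR adjusted p = 0.0167), but SP3 held 0 reads in 1 library, and the call was lost when FP3 replicate 1, FP3 replicate 2 or SP3 replicate 1 was left out (log2 fold changes 3.53, 3.30 and 3.27, edgeR adjusted p = 0.0530, 0.0626 and 0.0676). The secondary metabolism gene LOC_Os07g22850 had 3.09 (SE 0.181, edgeR adjusted p = 7.26e-05) and the transcription factor gene LOC_Os04g39470 had 2.84 (SE 0.335, edgeR adjusted p = 0.00101), and neither call was lost under an alternative. LOC_Os03g24130 rose with 2.19 (SE 0.216, edgeR adjusted p = 0.000505). For Ub_L40 2 (LOC_Os03g15370) the value was -0.47 (SE 0.373, edgeR adjusted p = 0.359), and its replicates overlapped.

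From meiosis to the uninucleate stage in WXS(F), 51 of the 140 members tested were higher in FP4 than in FP3, which is 36.4%, beside 12.9% of the 24926 genes tested. Only 5 members (3.57%) were lower in FP4, beside 6.13% of all genes. The median log2 fold change of FP4 relative to FP3 was 0.70 for the members and -0.02 for all genes, and 116 members had a positive value. Of the carbohydrate genes, LOC_Os02g54390 had 2.32 (SE 0.281, edgeR adjusted p = 0.00074) and LOC_Os09g31430 had 1.14 (SE 0.181, edgeR adjusted p = 0.0024), both higher in FP4. Without FP4 replicate 3, LOC_Os09g31430 fell under the fold threshold (log2 fold change 0.96). Of the members tested in each GO group, 4 of 8 for lipid binding, 4 of 7 for carbohydrate metabolism, 2 of 3 for RNA binding, 2 of 5 for external encapsulating structure, 2 of 3 for flower development, 2 of 4 for response to stress and 1 of 3 for extracellular region were higher in FP4, and none was lower. DNA binding had 3 higher and 1 lower of 7, and nucleolus had 1 higher and 1 lower of 5. None of the 4 signal transduction members was called in either comparison. The GO terms cover only clusters that the study found to rise from P3 to P4, so rises in these groups were favoured in advance.

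LOC_Os03g28160, LOC_Os02g38290 and LOC_Os01g49650 had the largest rises in FP4 by the same rule. LOC_Os03g28160 had 3.5, 4.43 and 3.12 FPKM in SP4, against 0.131, 0.22 and 0.0178 in FP3, 0.382, 0.628 and 0.322 in SP3 and 1.2, 1.33 and 1.49 in FP4, with a log2 fold change of 3.31 (SE 0.555, edgeR adjusted p = 0.00304). LOC_Os02g38290, annotated to oxygen binding, had 4.52, 5.14 and 6.22 FPKM in SP4, against 0.259, 0.192 and 0.27 in FP3, 0.407, 0.38 and 0.218 in SP3 and 1.84, 1.87 and 1.89 in FP4, with 2.94 (SE 0.189, edgeR adjusted p = 4.55e-05). The lipid-binding gene LOC_Os01g49650 rose with 2.81 (SE 0.277, edgeR adjusted p = 0.000293), and its neighbour LOC_Os01g49640 with 1.62 (SE 0.287, edgeR adjusted p = 0.00381). TDR rose with 1.61 (SE 0.104, edgeR adjusted p = 4.72e-05), and LOC_Os09g35700 with 2.29 (SE 0.154, edgeR adjusted p = 5.62e-05). The abundant gene LOC_Os04g58120 rose with 1.12 (SE 0.0723, edgeR adjusted p = 4.71e-05), whereas the gene of the highest score, LOC_Os08g43240, had 0.80 (SE 0.0663, edgeR adjusted p = 0.000135) and stayed below the fold threshold.

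Few members fell in FP4. Without overlap of replicates, the largest falls were those of LOC_Os03g46110, LOC_Os07g43260 and LOC_Os03g51200. LOC_Os03g46110 had 13.9, 20.3 and 20.4 FPKM in SP4, against 2.81, 2.13 and 2.36 in FP3, 4.35, 4.51 and 6.58 in SP3 and 0.614, 0.75 and 0.642 in FP4, with a log2 fold change of -1.82 (SE 0.176, edgeR adjusted p = 0.000268). LOC_Os07g43260 had -1.81 (SE 0.292, edgeR adjusted p = 0.00258), and the nucleolar gene LOC_Os03g51200 had -1.38 (SE 0.259, edgeR adjusted p = 0.00501). In all of these genes every FP4 library was below every FP3 library. LOC_Os01g52470 had -0.83 (SE 0.129, edgeR adjusted p = 0.00216) and was not called. Ub_L40 1 and Ub_L40 2 were at -0.01 (SE 0.22, edgeR adjusted p = 0.988) and 0.37 (SE 0.171, edgeR adjusted p = 0.121), neither of them called. LOC_Os02g55710 was also called, with 22.6, 24.8 and 26.5 FPKM in SP4, against 1.04, 5.67 and 5.56 in FP3, 10.4, 1.81 and 3.05 in SP3 and 1.34, 0.631 and 1.02 in FP4 and a log2 fold change of -1.99 (SE 0.675, edgeR adjusted p = 0.0476), but its replicates overlapped. Its call was lost when any FP4 replicate, FP3 replicate 2 or FP3 replicate 3 was left out (edgeR adjusted p = 0.0869 to 0.133, log2 fold changes -2.21 to -1.69). Only 6 of 14 alternatives, other methods and filters included, kept the call. Over all of them (edgeR, DESeq2 and limma) log2 fold changes ran from -2.45 to -1.18 and adjusted p from 0.00367 to 0.151.

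**Figure D4:**
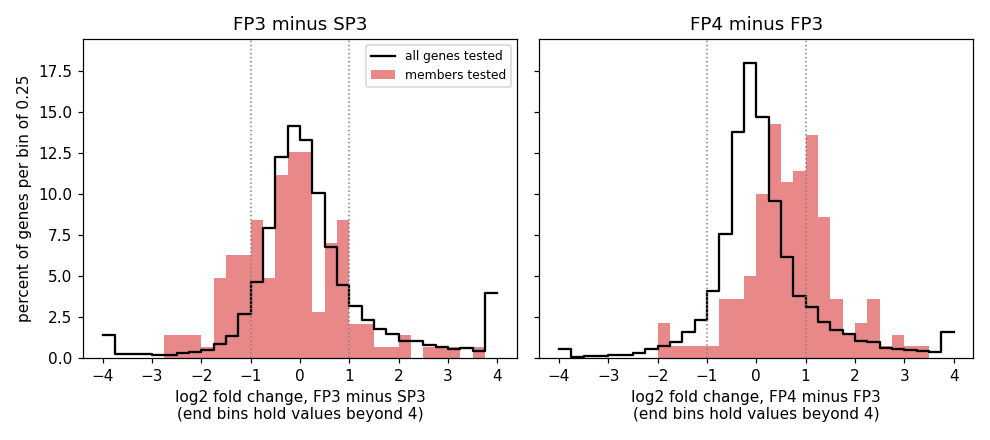
Share of genes (vertical, percent) by log2 fold change (horizontal, bins of 0.25) for FP3 relative to SP3 and FP4 relative to FP3, with the members tested as red bars (143 and 140 genes) and all genes tested as a black line (24405 and 24926 genes). The dotted lines mark a log2 fold change of -1 and 1, and the members' median is -0.20 in the first and 0.70 in the second comparison.

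Chromatin accessibility was measured apart from RNA, so the ATAC-seq peaks are independent of the rule. In ATAC-seq the Tn5 transposase cuts open chromatin, and the peaks called are Tn5 transposase hypersensitive sites (THSs). A supplementary list of the study, held here in part, gave positions of differential THSs for 6 members, and the deposited peak lists were searched for a peak overlapping each position by at least 1 bp. The positions had been chosen for a difference in accessibility, so no test was made. The peak lists hold called peaks without the reads behind them, and a missing peak does not show closed chromatin.

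LOC_Os01g26120 had THSs at 3 of these positions. Its RNA levels were 28.6, 30.6 and 32.4 FPKM in SP4, against 13.4, 11.9 and 12.2 in FP3, 9.26, 12.1 and 7.45 in SP3 and 11.7, 13.5 and 11.7 in FP4, and it was not called in FP3 against SP3 (log2 fold change 0.52, SE 0.137, edgeR adjusted p = 0.0228) or in FP4 against FP3 (log2 fold change 0.04, SE 0.0877, edgeR adjusted p = 0.767). A THS across the start site, chr1:14792980-14793168 on MSU7, was annotated as upstream, exon and 5′ UTR, was called in both libraries of SP3, FP4 and SP4 and in neither library of FP3. In an intron, the THS at chr1:14795622-14796205 was called in both SP4 libraries, with MACS scores of 66.8 and 84.4 (10 times the negative log10 of the p-value), and in none of the other 6 libraries. A second intron position, chr1:14793757-14794085, had a THS in 6 libraries, namely both of FP3 and SP4 and the first of SP3 and FP4.

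The study listed the start-site THS of LOC_Os01g26120 for SP3 and SP4 and its intron positions for SP4. Both FP4 libraries also had the start-site THS, with MACS scores of 52.35 and 100.67, beside 99.66 and 69.03 in SP4. The sequences of the start-site THS and the first intron THS named above are shown because their called peaks differed between groups, which does not measure accessibility itself. They were read from the study's supplementary sequences on the plus strand of MSU7, from 5′ to 3′. The plus strand was taken as that of the gene because the list places the upstream part before the start site at 14793094. The upstream part of the start-site THS (chr1:14792980-14793093) has its capitals where all 6 libraries with a THS there had one, and the intron THS (its first 300 bases, chr1:14795622-14795921) has its capitals where both SP4 libraries had one.
upstream: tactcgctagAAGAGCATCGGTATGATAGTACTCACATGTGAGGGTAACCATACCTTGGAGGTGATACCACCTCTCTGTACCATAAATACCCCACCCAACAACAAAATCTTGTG
intron: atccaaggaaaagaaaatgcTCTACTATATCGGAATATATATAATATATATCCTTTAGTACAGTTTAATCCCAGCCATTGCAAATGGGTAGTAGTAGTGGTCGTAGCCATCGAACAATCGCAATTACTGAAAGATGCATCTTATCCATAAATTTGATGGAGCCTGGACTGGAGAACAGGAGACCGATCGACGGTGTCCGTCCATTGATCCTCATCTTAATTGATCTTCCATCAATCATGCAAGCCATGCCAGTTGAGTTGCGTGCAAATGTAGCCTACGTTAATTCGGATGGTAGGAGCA
The GC content was 44.7% over the 114 upstream bases and 41.3% over the 300 intron bases.

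**Figure D5:**
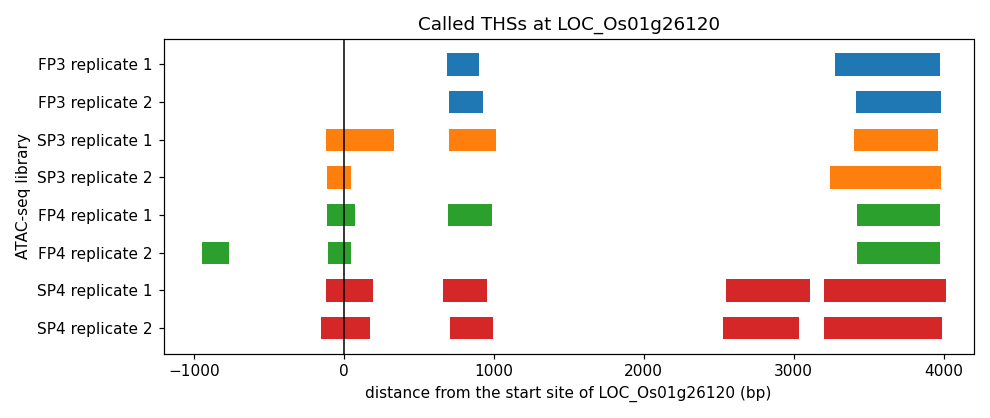
THSs called in each of the 8 ATAC-seq libraries (rows) at LOC_Os01g26120, drawn to scale by distance from its start site (horizontal, bp), where bars span each THS. The bars from 2528 to 3111 bp are present in both SP4 libraries only, and those at the start site are absent from both FP3 libraries.

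The other 5 members showed no called THS that separated SP4 from all other groups. The study listed the sites of LOC_Os01g14850, LOC_Os10g14180 and LOC_Os11g02330 for SP4 and those of LOC_Os10g42060 and LOC_Os11g47510 for FP3. It chose sites by a quantitative comparison of accessibility between groups, which the presence of a called peak does not repeat. At LOC_Os01g14850 the site downstream of the gene, chr1:8304856-8305330, had a THS in SP4 replicate 1 and SP3 replicate 2. The start-site THS of LOC_Os10g14180, chr10:7684911-7685280, was called in 7 libraries, all but SP3 replicate 1. That THS had MACS scores of 63.4 and 609 in SP4, against 495 and 677 in FP3 and 451 and 498 in FP4. In LOC_Os11g02330 the site at the 3′ end, chr11:680833-681126, had a THS in both SP4 libraries, in FP3 replicate 2, SP3 replicate 2 and FP4 replicate 1. Upstream of LOC_Os10g42060, chr10:22627462-22627687 had a THS in FP3 replicate 2 only, although the RNA of this gene was highest in SP4. The site upstream of LOC_Os11g47510, chr11:28730500-28731016, had a THS in FP3 replicate 2 and SP3 replicate 1. No SP4 library had a THS at the sites of these last 2 genes.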

How the data were processed

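The authors aligned the RNA-seq reads to MSU7 with HISAT2, discarded low-quality alignments, quantified genes with StringTie and deposited whole-number counts and FPKM. ATAC-seq peaks were called by MACS per library and deposited with a score, 10 times the negative log10 of its p-value. Groups came from the sample labels. The members and lists were chosen with earlier results of these data known.

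Counts were filtered by filterByExpr, TMM-normalized and tested with edgeR 4.0.16 (R 4.3.3) on the 6 libraries of a comparison, in code tested on simulated data. The alternatives used DESeq2 1.42.0, limma 3.58.1 on FPKM with 1 or 0.1 added before taking log2, a model over all 12 libraries, no TMM factors, other filters on low counts, a replicate block and each library left out, and for the choice of members other added values, minimum levels and scalings. Figures were drawn with matplotlib 3.10.9.

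By rule the text names the 12 highest scores, the 10 highest SP4 levels, 3 genes on each side of the last rank, per comparison and direction the 3 largest changes without overlap and with 1 CPM or more, members on a list, and the 5 with the least even SP4 replicates. All other genes named, the GO groups, the neighbour pairs and the THS positions were chosen after their values were seen. Product families, promoter motifs and THSs around all members were not analysed here, nor was histone ChIP-seq. A floor of 3 counts stands for a count of 0.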

Additional observations from a re-analysis of the deposited data

Results flagged for a closer look

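The tables also hold 2504 new genes outside the MSU7 loci, which the rule did not consider. Of the 277 with at least 1 FPKM in every SP4 library, 4 had a score at or above the lowest score of the members. The highest was that of Rice_newGene_2666, with a score of 2.76 and a mean of 2.50 FPKM in SP4 against 0.313 in FP3, 0.405 in SP3 and 0.361 in FP4. The most abundant was Rice_newGene_30821, with a score of 2.04 and a mean of 333 FPKM in SP4 against 113 in FP3, 163 in SP3 and 161 in FP4. These values were selected on SP4 as the members were, and no test was made. No group had 4 or more libraries, so single outlying libraries could not be tested.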

How the results depend on the processing

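Under the alternative settings of the rule, between 115 (levels as CPM with TMM factors) and 139 of the 150 members stayed in the first 150. Leaving out 1 SP4 library kept 137 to 139, and 96 members were kept under every alternative, among them all 12 of the highest scores. Limma on log2(FPKM + 1), whose added value by its construction shrinks the fold changes of low genes, called 17 members lower in FP3 than in SP3 in place of 28, 24 higher in FP4 than in FP3 in place of 51 and 3 lower in FP4 in place of 5. The other alternatives stayed within 1.5 times of these counts. Leaving out 1 library gave 6 to 10 members higher and 24 to 31 lower in FP3 than SP3, and 43 to 51 higher and 4 to 6 lower in FP4 than FP3. Without TMM factors the median log2 fold change of all genes from FP3 to FP4 was -0.12 in place of -0.02, and 42 members were higher. Replicate numbers did not pair the samples, since deviations of libraries with the same number correlated between -0.0399 and 0.00874, and with the replicate block 8 members were higher and 24 lower in FP3 than SP3, and 49 higher and 4 lower in FP4 than FP3. The call of LOC_Os05g41870 as lower in FP3 than SP3 (log2 fold change -1.15 (SE 0.317, edgeR adjusted p = 0.0263)) was lost under 5 of 14 alternatives, with adjusted p from 0.00318 to 0.0868 over all of them, 3 of them the omission of FP3 replicate 2, FP3 replicate 3 or SP3 replicate 2. That of LOC_Os01g49650 (log2 fold change -1.32 (SE 0.314, edgeR adjusted p = 0.0152)) was lost without FP3 replicate 3 (edgeR adjusted p = 0.0538) or SP3 replicate 3 (log2 fold change -0.98), with adjusted p from 3.02e-05 to 0.0538 over all its alternatives. Limma on log2(FPKM + 1) also put LOC_Os03g51200 (log2 fold change -0.68 from FP3 to FP4) under the fold threshold. Limma on log2(FPKM + 1) did the same for LOC_Os02g54390 (0.87), LOC_Os03g24130 (0.99) and LOC_Os09g31430 (0.90). Over all values recomputed for named genes, 782 kept their direction and their side of the threshold, 34 lost a call, 2 gained one and 27 changed sign. The sign changed only in comparisons that were not called in any setting. From FP3 to FP4, LOC_Os01g14850 had log2 fold changes of -0.0788 without TMM factors, -0.00041 without a filter and -0.0215 and -0.0216 under limma with 1 and 0.1 added, and -0.0252 to 0.0551 with 1 library left out. LOC_Os01g26120 had -0.0671 without TMM factors and -0.0259 and -0.0279 under limma with 1 and 0.1 added, and -0.0158 to 0.103 with 1 library left out. Ub_L40 1 (LOC_Os09g27930) had 0.013 with at least 10 counts in every library and 0.0216 with the replicate block, and -0.18 to 0.17 with 1 library left out. In FP3 relative to SP3, LOC_Os01g49640 had -0.0249 under DESeq2, -0.0085 without TMM factors and -0.0074 with all 12 libraries in 1 model. With 1 library left out it ranged from -0.34 to 0.57, while LOC_Os07g27940 ranged from -0.52 to 0.0297, LOC_Os09g35700 from -0.34 to 0.0551 and LOC_Os02g55710 from -0.67 to 0.70. THSs around all members were not run, because the gene positions they need were not used here. Low counts limit the weakest members, and the reads behind the peaks were not analysed here.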
